A study of Mus musculus with 8 samples.

Results

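The replication-dependent histone genes are the multicopy genes that supply the core and linker histones for new chromatin. They were taken as the protein-coding genes whose mouse symbol begins with Hist1h, Hist2h, Hist3h or Hist4h in GENCODE vM21, and 67 of the 54838 gene rows met this rule. Of these, 6 encode the linker histone H1, 18 encode H2A, 18 encode H2B, 12 encode H3 and 13 encode H4. The Hist1 cluster on chromosome 13 holds 54 of them, the Hist2 cluster on chromosome 3 holds 10, the Hist3 cluster on chromosome 11 holds 2 and the Hist4 locus on chromosome 6 holds 1. Their levels were followed in mouse embryonic fibroblasts (MEFs), primary connective tissue cells grown from embryos, in 4 groups of 2 libraries. Proliferating MEFs had no senescence treatment recorded. The n-Sen MEFs were made senescent with nutlin3a, which stabilises p53 by blocking MDM2. Before nutlin3a they were synchronised in G2 with RO3306, a CDK1 inhibitor. They had nutlin3a for 48 h, and then 14 days of 100 nM BI-2536, a PLK1 inhibitor that eliminates dividing cells. The n-Sen control and n-Sen alkali groups had the same senescence treatment and then 24 h in HEPES-buffered medium adjusted in pH, to values that the labels do not give. Senescence, the drugs and the time in culture cannot be told apart in the first comparison. Whether the libraries of a group came from separate cultures is not recorded, so p-values refer to the spread between libraries, which may be technical.

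Replication-dependent histone genes are switched on together at the start of S phase, when DNA is copied and new nucleosomes are needed. Their mRNAs are the exception among mRNAs of animal cells in that most carry no poly(A) tail. They end instead just after a short hairpin that the stem-loop binding protein SLBP holds, and they are destroyed when DNA synthesis stops. The RNA measured here was selected on poly(T) beads, so the values describe histone transcripts that this selection retained. More transcript and a larger share of tailed transcript cannot be told apart, and total histone mRNA was not measured.

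The hairpin is shown first because it defines this family. It was searched on the transcript strand after the stop codon as 16 bases made of GG and 4 further bases, the loop TTNN, and the reverse complement of the first 6. It was found in 44 of the 67 genes, 21 to 58 bases after the stop codon (median 31). Across 21921 protein-coding genes of the tables, 0.689% had such a stretch anywhere in a transcript. Only 6 different stem-loops occurred among the members. Of these, 26 genes had the form shown for Hist1h3b, 6 had that of Hist1h3c, 7 had that of Hist1h4n and 2 had that of Hist1h4i. The lines below give the hairpin in capitals as DNA, with 5 bases on either side, for the members that the results turn on.
Hist1h1c: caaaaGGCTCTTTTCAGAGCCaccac
Hist3h2a: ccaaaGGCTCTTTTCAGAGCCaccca
Hist1h2ab: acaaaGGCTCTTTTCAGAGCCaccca
Hist1h3b: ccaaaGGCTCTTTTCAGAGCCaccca
Hist1h3c: aaaaaGGCTCTTTTAAGAGCCaccta
Hist2h3c1: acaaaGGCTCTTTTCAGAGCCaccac
Hist1h4n: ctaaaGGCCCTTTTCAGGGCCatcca
Hist1h4i: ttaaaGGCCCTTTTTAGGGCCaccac

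The annotation of 13 members stops at the stop codon, so a hairpin could not be found in them. The spliced transcript of Hist1h2bc and the transcripts of Hist2h2be, Hist1h2bq and Hist1h2br, all with annotated 3′ UTRs of over 200 bases, held none in this form. Further along, near the annotated transcript end, the polyadenylation signal AATAAA was found within the last 50 bases in 14 members. The same search found it in 65.8% of 21842 protein-coding genes. The 13 members annotated only to the stop codon had no 3′ UTR to search, which limits this comparison. Members with both a hairpin and this signal included the following, with the signal in capitals.
Hist1h1c: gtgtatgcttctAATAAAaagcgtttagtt
Hist3h2a: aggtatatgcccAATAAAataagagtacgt
Hist2h3c1: ttttttaatcccAATAAAaatttaacacac

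RefSeq promoters, the 250 bases before the annotated start on GRCm38.p6, were matched for 62 members. Both strands were searched. CCAAT, the box bound by NF-Y, was found in 6 of 6 H1, 18 of 18 H2A, 16 of 16 H2B, 8 of 10 H3 and 3 of 12 H4 promoters, against 34.5% of 27025 promoters. The octamer ATTTGCAT, bound by OCT1, was found in 7 H2A and 6 H2B promoters and in no matched promoter of the other classes, against 1.61%. The stretch GGTCCG, chosen as part of the H4 promoter element, was found in 9 of 12 H4 promoters against 6.82%. TATAAA was found in 4 H1, 7 H2A, 8 H2B, 4 H3 and 6 H4 promoters, against 12.97%. Hist1h2ac and Hist1h2bc lie head to head. The RefSeq promoter of Hist1h2ac is shown on the minus strand (chr13:23683960-23684209). It covers most of the sequence between their annotated starts in GENCODE, at 23683948 and 23684199, and runs slightly into Hist1h2bc. Capitals mark CCAAT, the octamer and TATAAA, whichever strand they were found on.
Hist1h2ac: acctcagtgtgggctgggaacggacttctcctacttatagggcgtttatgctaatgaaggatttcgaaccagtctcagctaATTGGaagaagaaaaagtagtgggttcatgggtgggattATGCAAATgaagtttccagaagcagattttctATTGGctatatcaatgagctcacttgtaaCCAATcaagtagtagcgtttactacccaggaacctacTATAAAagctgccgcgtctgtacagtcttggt

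A pair of H4 promoters is shown because these genes moved in opposite directions in the n-Sen comparison. Both lie on the minus strand, Hist1h4i at chr13:22041363-22041612 and Hist1h4n at chr13:21832198-21832447. Capitals mark the longest stretch that they share, 38 bases, which holds GGTCCG in both.
Hist1h4i: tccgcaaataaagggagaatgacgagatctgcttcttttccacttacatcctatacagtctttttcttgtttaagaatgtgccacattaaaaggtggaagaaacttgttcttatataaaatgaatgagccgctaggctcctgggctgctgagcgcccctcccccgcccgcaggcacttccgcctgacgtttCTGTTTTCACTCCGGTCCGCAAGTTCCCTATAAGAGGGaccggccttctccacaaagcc
Hist1h4n: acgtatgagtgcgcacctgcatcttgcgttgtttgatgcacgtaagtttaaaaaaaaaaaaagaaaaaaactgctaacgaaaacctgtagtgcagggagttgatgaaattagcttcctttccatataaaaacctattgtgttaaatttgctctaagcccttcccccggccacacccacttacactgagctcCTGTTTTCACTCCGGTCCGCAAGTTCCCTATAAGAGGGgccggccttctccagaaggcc

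Total counts ran from 40608517 to 54183060 per library, and no pair of replicates agreed within sampling noise (chi-square per degree of freedom 4.63 to 7.39). The 11 fibroblast markers summed to 11489 to 11778 CPM in proliferating cells, against 17793 to 17966 in n-Sen, and most of this came from Col1a1, Col1a2 and Vim. In proliferating cells Lum was at 0.587 ± 0.0145 CPM and Fap at 2.71 ± 0.779 CPM. In n-Sen 9 markers rose, while Pdgfra (from 87.9 ± 4.67 to 9.81 ± 1.28 CPM) and Thy1 fell. In alkaline medium 3 rose and 7 fell. Over all genes tested, 34.0% were called higher and 33.1% lower in n-Sen, and 9.58% and 10.4% in alkaline medium. All 15 macrophage markers were higher in n-Sen, where they summed to 1186 to 1262 CPM, against 53.3 to 60.0 in proliferating cells. In the pH experiment they summed to 1155 to 1221.5 CPM in control medium against 1077 to 1080 with alkaline medium, and 7 of the 15 were lower. Endothelial markers summed to 26.7 to 32.99 CPM in proliferating cells, against 5.53 to 6.77 CPM in n-Sen, and 2 of the 3 tested fell, Kdr and Emcn. Epithelial markers summed to 63.4 to 71.1 CPM before and 4.22 to 4.44 CPM after senescence. Of these Krt19, Krt18 and Krt8 fell and Cdh1 rose, and Epcam and Krt8 were at 0 in n-Sen. Red cell markers summed to under 0.5 CPM in every library and germ cell markers, looked at because the testis has its own histone genes, to at most 1.75 CPM. The part of RNA from other cell types, macrophages included, in the histone results was not tested. In bulk RNA, fewer cells of a type and less RNA per cell cannot be told apart.

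Histone genes were near-identical copies in part. A non-whole value occurred in at least 1 library for 60 members and in all 8 libraries for 34. Over all gene rows, 32.7% to 33.7% of the nonzero values in a library were non-whole. Whether alike copies or overlapping genes gave the non-whole values of the members was not tested. By 50-base words of the annotated transcripts, 30 members shared over 50% of their words with another member, and 7 shared none. Genes outside the members, pseudogenes included, were not searched for these words. The count of a single copy is therefore uncertain where copies are alike, and class sums and copy groups are given beside single genes. On the same strand, 7 members overlap exons of other genes, and 21 overlap exons on the opposite strand. Whether the counting used strand is not known, so overlapping reads may not be separated.

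In n-Sen MEFs the histone genes stood higher than in proliferating MEFs in every class. Their summed level was 130 and 124 CPM (counts scaled to TMM-adjusted library size) in the proliferating libraries. In the n-Sen libraries it was 591 and 596 CPM, a ratio of the means of 4.68. As a share of all counts this was 0.0133% and 0.0129% against 0.0591% and 0.0595%. After the filter on low counts 55 members were tested, of which 46 rose, 2 fell and 7 did not pass. Of all 19264 genes tested, 34.0% were called higher and 33.1% lower. The median log2 fold change of the 55 was 2.39, beside 0.0015 over all genes tested. The n-Sen and proliferating libraries did not overlap in 53 of the 55, beside 83.4% of all genes. DESeq2 called 40 higher, and its 2 lower calls were the same 2 genes. Among the 36 members with at least 10 counts in both proliferating libraries, 31 rose and 2 fell. Of the 19 tested with under 10 in a proliferating library, 15 rose and 0 fell. Such members could pass the count filter through their n-Sen counts, which favours a rise. This limit holds for the tallies by class, position and sequence feature below too.

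The class sums had ratios of 3.68 to 8.58, whose differences were not tested. The H3 sum was 8.27 ± 0.692 CPM (SD, n = 2 in this and all later values) in proliferating cells and 70.9 ± 0.597 in n-Sen, a ratio of 8.58. The H2B sum was 38.1 ± 2.06 and 206 ± 2.99 CPM, a ratio of 5.41. The H2A sum was 13.9 ± 2.0 and 65.9 ± 2.20 CPM, a ratio of 4.74. The sums of H1 and H4 had the lower ratios. H1 summed to 49.8 ± 2.87 and 189 ± 2.21 CPM, a ratio of 3.80, and H4 to 16.8 ± 0.888 and 61.8 ± 1.49 CPM, a ratio of 3.68. No class had overlapping libraries between the groups, beside 83.4% of all genes tested that did not overlap. The order of these ratios depended on single genes, most of all in H4, H1 and H2A and least in H2B. Without Hist1h4i the H4 ratio was 14.5, without Hist1h1c the H1 ratio was 10.4, and without Hist3h2a the H2A ratio was 8.55. Without Hist1h3b the H3 ratio was 6.38, and without Hist1h2bc the H2B ratio was 5.16.

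**Figure D1:**
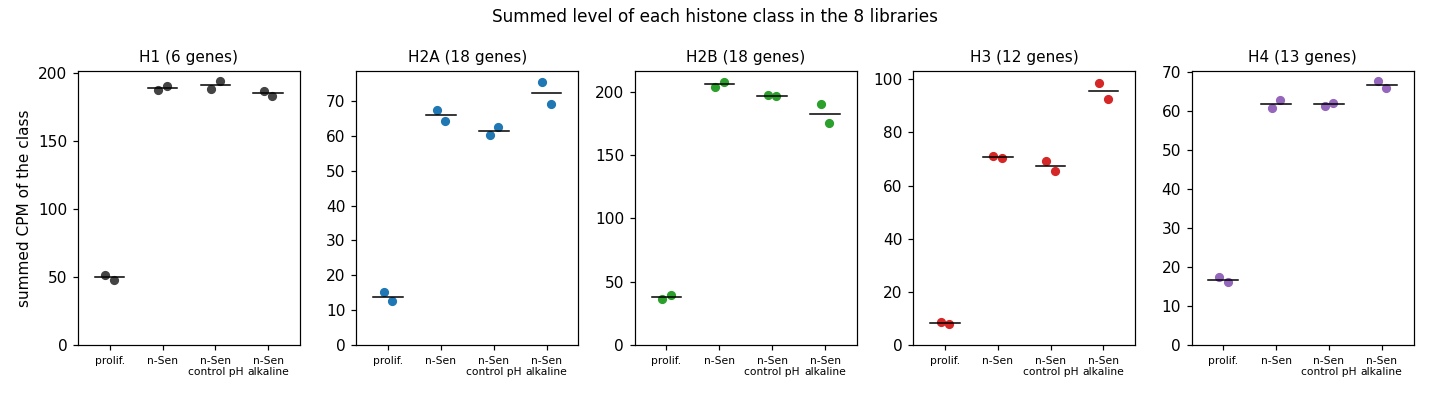
Summed level of each histone class in CPM (vertical axis, from 0) in each of the 8 libraries (points), by group, with the mean of 2 as a bar. Every class is higher in the n-Sen libraries than in the proliferating ones, and in the pH experiment the H3 sum is the one that moves most, from 67.3 to 95.7 CPM.

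The linker histone H1 binds the DNA that enters and leaves the nucleosome. All 5 H1 genes tested rose (median log2 fold change 2.97). Hist1h1c (H1.2; chr13:23738808-23740367) was at 50.4 and 45.8 CPM in proliferating cells and at 170.4 and 172 CPM in n-Sen. It had the most counts of all members in both groups and rose by a log2 fold change of 1.84 ± 0.061 (SE; adjusted p = 3.35e-14). It held 97.2% and 95.9% of the H1 counts in proliferating cells, against 90.8% and 90.4% in n-Sen.

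Hist1h1d (H1.3) was at 0.649 and 0.896 CPM in proliferating cells, against 9.54 and 9.88 in n-Sen (log2 fold change 3.64 ± 0.21, adjusted p = 4.89e-11). Hist1h1e (H1.4) was at 0.432 and 0.498 CPM and 6.03 and 6.75 CPM (3.77 ± 0.24, adjusted p = 2.85e-10). The exons of Hist1h1e overlap those of Hist1h2be on the same strand, so reads of that stretch could belong to either gene. Hist1h1b (H1.5) was at 0.384 and 0.418 CPM and at 1.18 and 0.851 CPM (1.33 ± 0.44, adjusted p = 0.0136). Its call was lost with DESeq2 and without n-Sen replicate 1. The H1 genes other than Hist1h1c summed to 1.72 ± 0.357 CPM before senescence and 17.8 ± 0.784 CPM after it, a ratio of 10.4.

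H2A forms a dimer with H2B in the nucleosome. Of 14 H2A genes tested, 10 rose and none fell (median 1.56; edgeR also called none lower at an unadjusted p under 0.05). Hist3h2a (chr11:58954685-58956830), the H2A gene of the Hist3 cluster, was the H2A member with most counts in proliferating cells, at 8.43 and 7.46 CPM, and was at 15.2 and 14.6 CPM in n-Sen. Its log2 fold change of 0.91 ± 0.12 was the smallest of the 10 that rose (adjusted p = 3.45e-06). It gave 55.0% and 59.6% of H2A counts in proliferating cells, against 22.5% and 22.6% in n-Sen. Its exons overlap Trim17 on the same strand.

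Hist1h2ab (chr13:23751126-23751598) rose furthest among the H2A genes. It was at 0.472 and 0.615 CPM in proliferating cells, against 13.2 and 12.1 CPM in n-Sen (4.51 ± 0.20, adjusted p = 1.79e-12). Hist2h2aa2, one of an identical pair of the Hist2 cluster, was at 1.77 and 1.08 CPM and at 13.8 and 15.03 CPM (3.36 ± 0.19, adjusted p = 4.31e-11). Its partner Hist2h2aa1 was at 1.14 and 0.749 CPM and at 9.80 and 10.8 CPM (3.45 ± 0.21, adjusted p = 9.91e-11). The H2A genes that did not pass were Hist1h2ag, Hist1h2an, Hist1h2ai and Hist1h2ap, with log2 fold changes of -1.02 to 1.22.

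Of 13 H2B genes tested, 12 rose (median 2.45), and edgeR called none lower, also at an unadjusted p under 0.05. Hist1h2bc (chr13:23684199-23692908) was at 25.8 and 26.4 CPM in proliferating cells, against 145 and 143 CPM in n-Sen, a log2 fold change of 2.47 ± 0.063 (adjusted p = 1.13e-15). It held 66.8% to 71.2% of the H2B counts in these 4 libraries, so H2B counts came mainly from this gene. Hist1h2bg was at 4.53 and 4.40 CPM and at 21.7 and 23.8 CPM (2.35 ± 0.12, adjusted p = 1.33e-11). Hist1h2be was at 1.29 and 1.24 CPM and at 15.8 and 18.9 CPM (3.78 ± 0.17, adjusted p = 1.63e-12). The groups did not overlap in any of these. Hist1h2bq was at 0.586 and 0.661 CPM and at 4.29 and 3.92 CPM (2.73 ± 0.26, adjusted p = 5.52e-08). The one H2B gene tested that did not pass was Hist2h2be, at 1.80 and 2.37 CPM and at 2.29 and 2.98 CPM, which overlapped between groups (0.34 ± 0.25, adjusted p = 0.24).

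H3 and H4 form the tetramer at the core of the nucleosome. Of the 12 H3 genes, all tested, 11 rose and 1 fell (median 2.1). Hist1h3b (chr13:23752267-23752886) was at 0.930 and 0.918 CPM in proliferating cells and at 24.2 and 23.9 CPM in n-Sen (4.70 ± 0.15, adjusted p = 2.23e-14). It gave 10.6% and 11.8% of H3 counts in proliferating cells and 33.9% in each n-Sen library. Hist2h3c2 (chr3:96238108-96239127) was at 1.32 and 0.707 CPM and at 13.7 and 13.2 CPM (3.75 ± 0.21, adjusted p = 3.07e-11). The identically coding Hist2h3c1 (chr3:96246685-96248509) was at 1.19 and 0.818 CPM and at 12.3 and 12.4 CPM (3.63 ± 0.19, adjusted p = 1.65e-11). Both rose, and reads inside the shared sequence cannot be assigned to 1 of them.

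Hist1h3d was at 1.01 and 1.15 CPM in proliferating cells and at 10.5 and 9.81 CPM in n-Sen (3.22 ± 0.19, adjusted p = 6.39e-11). Hist1h3c (chr13:23744973-23745602) was at 1.22 and 0.886 CPM and at 2.15 and 2.62 CPM (1.19 ± 0.29, adjusted p = 0.00143). Hist1h3h was at 0.245 and 0.623 CPM and at 1.13 and 1.49 CPM (1.58 ± 0.44, adjusted p = 0.00457), and lost its call without n-Sen replicate 2. The exception was Hist1h3g (chr13:23535422-23535951). It was at 1.35 and 0.955 CPM in proliferating cells and at 0.482 and 0.426 CPM in n-Sen, and fell by 1.35 ± 0.42 on the log2 scale (adjusted p = 0.00913). This was 56 and 48 counts against 22.5 and 23, and the call was lost without proliferating replicate 1.

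H4 held the other member that fell. Hist1h4i (chr13:22040636-22041362) was at 13.7 and 12.3 CPM in proliferating cells and at 7.16 and 7.37 CPM in n-Sen. It fell by 0.84 ± 0.13 on the log2 scale (adjusted p = 1.36e-05). Hist1h4i gave 78.7% and 76.3% of the H4 counts in proliferating cells, against 11.8% and 11.7% in n-Sen. The other H4 genes together were at 3.76 ± 0.0857 CPM and at 54.6 ± 1.339 CPM, a ratio of 14.5. The H4 ratio of 3.68 thus combines a gene of many counts that fell with the others.

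Of the 11 H4 genes tested, 8 rose and 1 fell (median 1.93). Hist1h4n (chr13:21831767-21832196) was at 0.733 and 0.358 CPM in proliferating cells and at 20.96 and 21.8 CPM in n-Sen (5.34 ± 0.20, adjusted p = 1.69e-13). Hist1h4m (chr13:21811746-21812147), with an identical coding sequence, was at 0.577 and 0.199 CPM and at 15.4 and 15.7 CPM (5.38 ± 0.25, adjusted p = 2.59e-12). These were the largest log2 fold changes among the members tested. Hist1h4h was at 0.589 and 0.308 CPM and at 10.5 and 9.93 CPM (4.54 ± 0.24, adjusted p = 1.45e-11). Hist1h4a was at 0.186 and 0.179 CPM and at 1.66 and 2.16 CPM (3.35 ± 0.42, adjusted p = 1.52e-06). Hist1h4k and Hist1h4j did not pass, with log2 fold changes of -0.22 and 0.68.

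**Figure D2:**
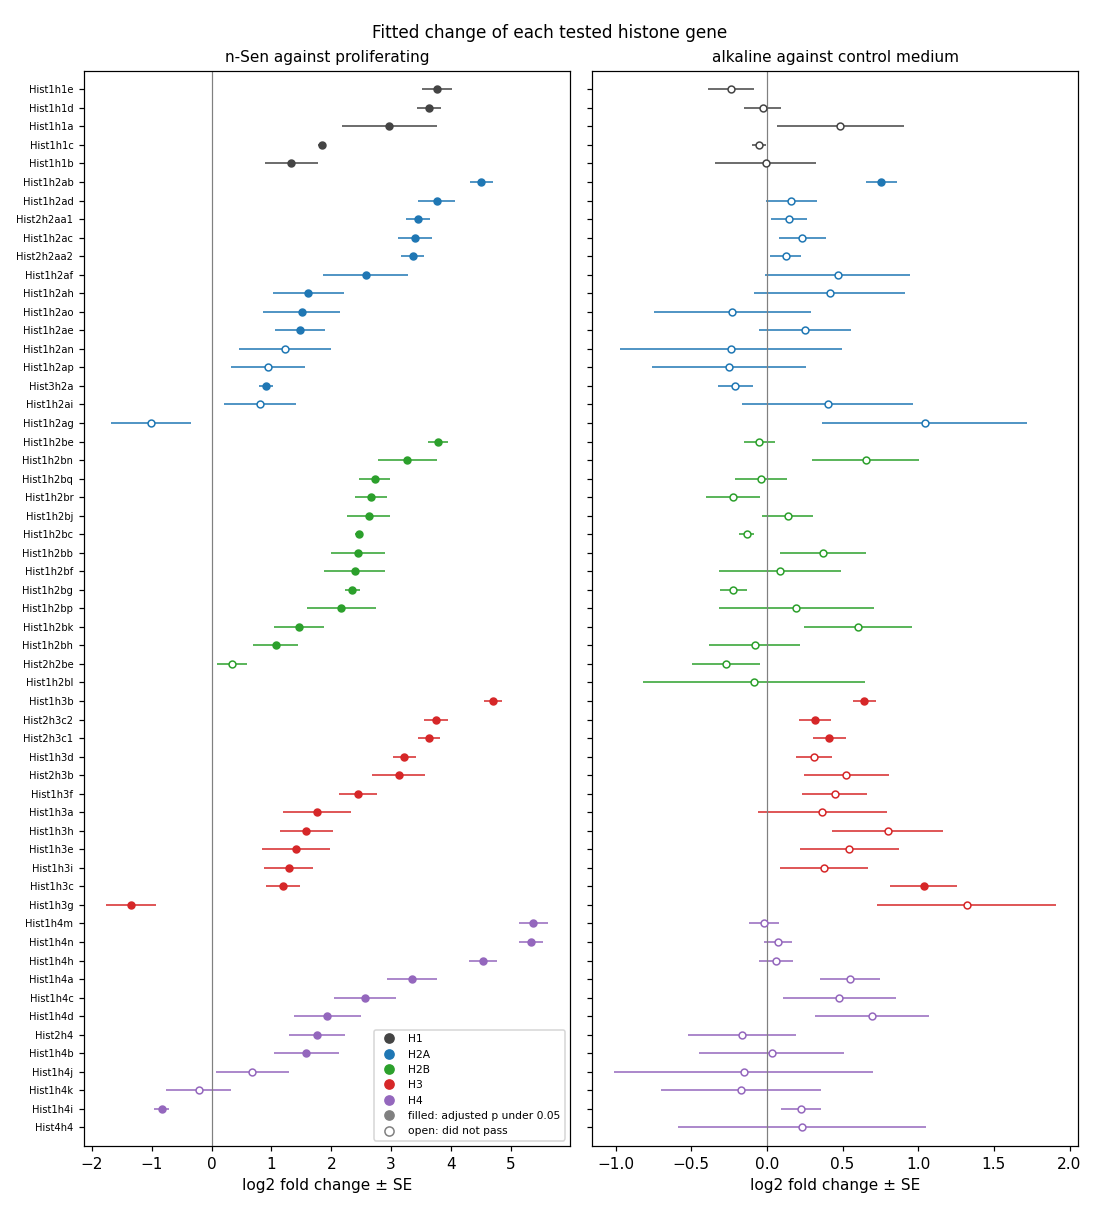
Fitted log2 fold change with its SE (horizontal axis) of each tested histone gene (rows, coloured by class), for n-Sen against proliferating cells (left) and alkaline against control medium (right). Filled points passed an adjusted p of 0.05: 46 are right of 0 and 2 left of it in the left panel, and 5 are right of 0 in the right panel, 4 of them H3.

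Per kilobase of annotated exon, the order of the members changed between groups. In proliferating cells Hist1h1c stood highest, at 30.8 CPM per kb, followed by Hist1h2bc at 22.6, Hist1h4i at 17.9, Hist1h2bg at 7.22 and Hist3h2a at 3.70. In n-Sen the order was Hist1h2bc at 125 CPM per kb, Hist1h1c at 109.9, Hist1h4n at 49.7, Hist1h3b at 38.8, Hist1h4m at 38.7 and Hist1h2bg at 36.8. Hist1h3b and Hist1h4m, next to each other in that order, did not differ beyond the spread between libraries. Exon lengths in the annotation run past the hairpin in some members and stop at the stop codon in others, so this order depends on the annotation.

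Copies with the same coding sequence were summed, since reads inside that sequence cannot be assigned to 1 of them. There were 5 such groups of 2. Hist1h4m and Hist1h4n together were at 0.933 ± 0.532 CPM in proliferating cells, against 36.9 ± 0.835 in n-Sen, a ratio of 39.6. Hist2h3c1 and Hist2h3c2 were at 2.02 ± 0.698 and 25.8 ± 0.237 CPM, a ratio of 12.8. Hist2h2aa1 and Hist2h2aa2 were at 2.37 ± 0.764 and 24.7 ± 1.56 CPM, a ratio of 10.4. These groups were thus higher in n-Sen as sums too. Hist1h2bq and Hist1h2br were at 1.23 ± 0.159 and 7.98 ± 0.371 CPM, a ratio of 6.47, and Hist1h2ao and Hist1h2ap at 0.415 ± 0.145 and 0.950 ± 0.379 CPM, a ratio of 2.29. Members with under 20% of their 50-base words in another member, where copies within the family matter least, were higher in 12 of 13 tested (median 1.93). Of these 13, Hist1h1a, Hist1h4c and Hist1h4d had under 10 counts in a proliferating library. They passed the count filter through their n-Sen counts, which favours a rise.

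Many H2A and H2B genes share a promoter region and are read in opposite directions. There were 12 such head-to-head pairs less than 500 bases apart, each of 1 H2A and 1 H2B gene. Both partners were tested in 8 pairs, and both rose in 5 of them. The difference between partners was not tested. Hist1h2ah and Hist1h2bk, which both rose, had log2 fold changes of 1.62 and 1.46. Hist1h2ac, shown with its promoter above and chosen for that pair, was at 0.618 and 0.378 CPM and at 6.12 and 4.35 CPM (3.40 ± 0.29), while its partner Hist1h2bc had a log2 fold change of 2.47. In the pair of Hist1h2ag and Hist1h2bj, 269 bases apart, the log2 fold changes were -1.02 (not passed) and 2.63 (passed).

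Along chromosome 13 the Hist1 genes fall into 4 stretches separated by more than 150 kb. In the stretch at 23531050-23764406, 26 of 27 genes tested rose and Hist1h3g fell (median 2.47). Some of the 26 passed the count filter through their n-Sen counts, which favours a rise. Examples are Hist1h1a, with 0 and 8 proliferating counts, and Hist1h2af, with 3.81 and 2.52. In that at 21715763-21837530, which holds Hist1h4m and Hist1h4n, 10 of 15 tested rose and none fell (median 1.5; edgeR also called none lower at an unadjusted p under 0.05). In the short stretch at 22035164-22043676, 3 of 5 rose and Hist1h4i fell (median 1.46). The 2 genes at 23933773-23934851, Hist1h2ba and Hist1h2aa, known as testis histone genes, had too few counts to test. In the Hist2 cluster 6 of 7 genes tested rose (median 3.36).

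**Figure D3:**
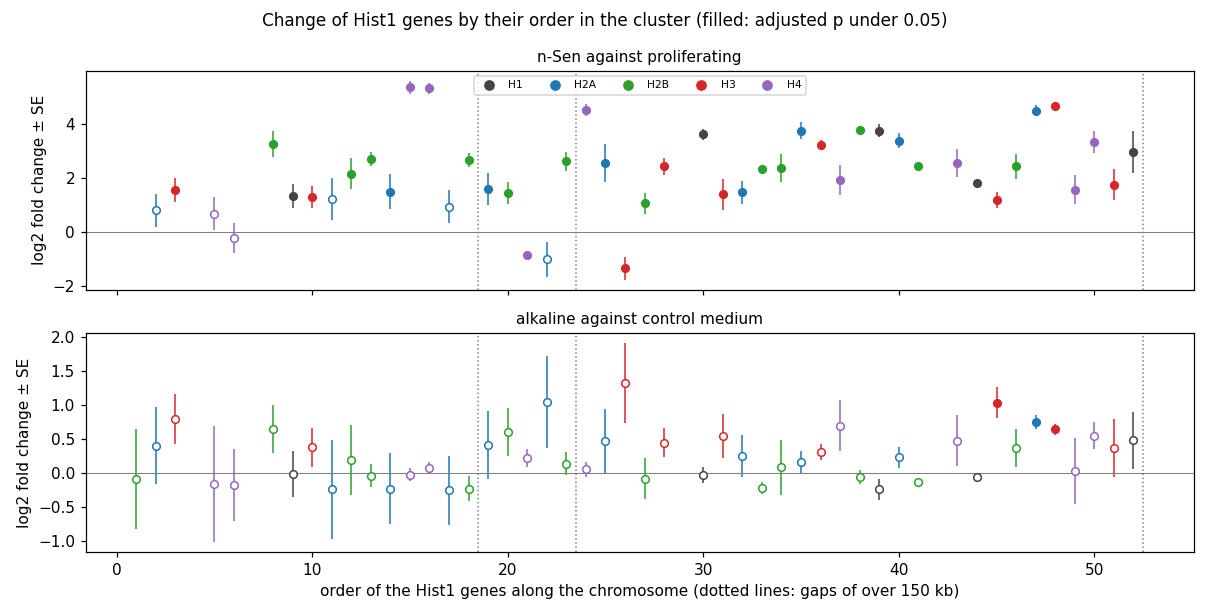
Log2 fold change with its SE (vertical axis) of each tested Hist1 gene in its order along the chromosome (horizontal axis, rank), for n-Sen against proliferating (top) and alkaline against control medium (bottom). Colours mark classes, filled points passed an adjusted p of 0.05, and dotted lines mark gaps of over 150 kb. Genes higher in n-Sen lie in each of the first 3 stretches, and the 2 filled points below 0 are Hist1h4i and Hist1h3g.

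The hairpin and the annotated transcript end were set beside these changes. Of the members with a hairpin found, 34 of 38 tested rose (median 2.42), and of those without one found, 12 of 17 rose (median 1.62). Of the members with an annotated 3′ UTR of at least 200 bases, a limit chosen after values were seen, 19 of 22 tested rose (median 2.45). Of those with a shorter one, 27 of 33 rose (median 2.17). Members with AATAAA near the annotated end rose in 9 of 11 cases tested (median 1.84). The differences between these sets were not tested. Members of few proliferating counts in these sets could pass the count filter through n-Sen counts, which favours a rise.

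Members outside the test had few counts. In the n-Sen comparison 12 were left out. Hist1h2aa had no count in any library, which allows up to 3 counts in each. Hist3h2ba had 2 and 14 counts and Hist2h2bb had 5 and 2.83 counts in the proliferating libraries, and both had 0 in each n-Sen library. Those 2 were picked out after their values were seen. The 12 had between 0 and 36 counts in a library of this comparison.

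The second comparison asked how the pH of the medium bears on senescent cells. In alkaline medium 5 histone genes were called higher. Of these, 4 were H3 genes, which include the identically coding Hist2h3c1 and Hist2h3c2. Of 57 members tested, 5 rose and none fell, while 9.58% of 19129 genes were called higher and 10.4% lower. At an unadjusted p under 0.05, edgeR had 10 higher and 2 lower, and DESeq2 called 4 higher and none lower after adjustment. The share called higher among the members, 8.77%, is near that over all genes. The median log2 fold change was 0.19, beside -0.0093 over all genes. Control and alkaline libraries did not overlap in 31 of the 57, beside 56.7% of all genes.

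The summed level of all members was 576 and 581 CPM in control medium, against 620 and 586 CPM in alkaline medium, a ratio of 1.04. By class, the H3 sum was 69.1 and 65.5 CPM in control medium, against 98.7 and 92.7 CPM in alkaline medium, a ratio of 1.42. The H2A sum was 60.4 and 62.6 CPM and 75.5 and 69.2 CPM, a ratio of 1.18. The H4 sum was 61.3 and 62.1 CPM and 67.7 and 65.8 CPM, a ratio of 1.08. These 3 sums did not overlap between groups and stood higher in alkaline medium. The H1 sum (188 and 194 CPM, then 187 and 183 CPM, ratio 0.968) and the H2B sum (197 in both, then 191 and 175 CPM, ratio 0.928) stood lower. The H1 and H2B sums did not overlap between groups either. Among all genes tested, 56.7% did not overlap in this comparison, and the differences between the sums were not tested.

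Of the H3 genes, 4 of 12 rose, and the log2 fold changes of all 12 were positive, from 0.31 to 1.32 (median 0.49). These 12 share sequence, so they are not independent of each other. Hist1h3b was at 23.9 and 22.3 CPM in control medium and at 36.6 and 35.9 CPM in alkaline medium (0.64 ± 0.077, adjusted p = 1.17e-06). Hist1h3c was at 2.23 and 1.72 CPM and at 4.69 and 3.45 CPM (1.03 ± 0.22, adjusted p = 0.00152). Hist2h3c1 was at 10.9 and 11.2 CPM and at 15.4 and 14.2 CPM (0.41 ± 0.11, adjusted p = 0.00785). In each of these, both alkaline libraries lay above both control libraries. Hist2h3c2 was at 14.8 and 12.6 CPM and at 17.6 and 16.8 CPM (0.32 ± 0.11, adjusted p = 0.0354). As a sum, Hist2h3c1 and Hist2h3c2 stood at 24.8 ± 1.31 and 32.0 ± 1.40 CPM, a ratio of 1.29.

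The calls of the Hist2 pair rest on few libraries. That of Hist2h3c2 was lost with DESeq2, in the fit of all 8 libraries, and without n-Sen control replicate 2 or n-Sen alkali replicate 1. That of Hist2h3c1 was lost without n-Sen alkali replicate 1. Hist1h3d, at 9.14 and 9.74 CPM and at 12.03 and 11.5 CPM, did not pass (0.31 ± 0.12, adjusted p = 0.0651). Hist1h3h, at 0.746 and 0.720 CPM and at 1.30 and 1.27 CPM, did not pass either (0.80 ± 0.37, adjusted p = 0.139). Hist1h3g, which had fallen in the n-Sen comparison, was at 0.185 and 0.281 CPM and at 0.504 and 0.686 CPM (1.32 ± 0.59, adjusted p = 0.128).

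The fifth gene that rose was Hist1h2ab, the H2A gene that lies next to Hist1h3b. It was at 10.5 and 11.1 CPM in control medium and at 19.2 and 17.5 CPM in alkaline medium (0.76 ± 0.10, adjusted p = 9.07e-06). The groups did not overlap. The starts of Hist1h2ab and Hist1h3b, both on the plus strand, are at 23751126 and 23752267 on chromosome 13. The other H2A genes did not pass. Hist3h2a was at 10.98 and 10.9 CPM and at 9.52 and 9.53 CPM (-0.21 ± 0.12, adjusted p = 0.244). Hist2h2aa2, with the most counts of the H2A genes in control medium, was at 14.6 and 16.0 CPM and at 17.8 and 15.7 CPM (0.12 ± 0.10, adjusted p = 0.472), and Hist2h2aa1 at 10.1 and 11.03 CPM and at 12.6 and 10.9 CPM (0.15 ± 0.12, adjusted p = 0.455).

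**Figure D4:**
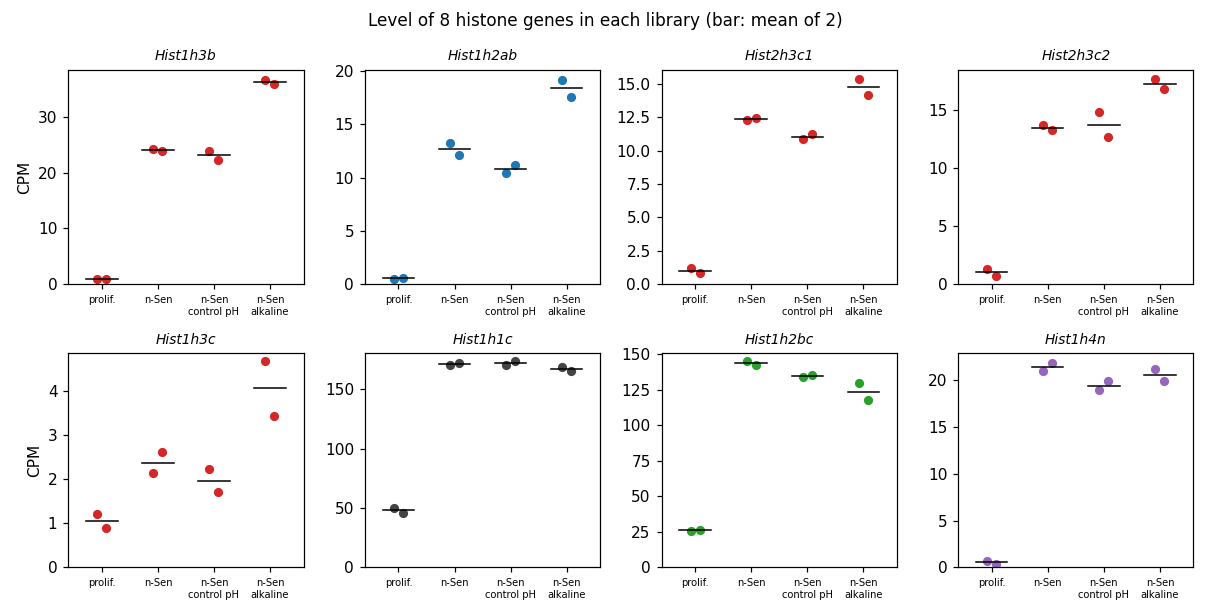
Level in CPM (vertical axes, from 0) of 8 histone genes in each of the 8 libraries (points), by group, with the mean of 2 as a bar. The 5 genes called higher in alkaline medium come first, and Hist1h3b goes from 23.9 and 22.3 CPM in control medium to 36.6 and 35.9 CPM, while Hist1h1c, Hist1h2bc and Hist1h4n did not pass.

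No H1, H2B or H4 gene passed. In these classes edgeR's unadjusted p was under 0.05 for 1 H4 gene on the higher side and 2 H2B genes on the lower side, and DESeq2 called none of these classes. Hist1h1c was at 170.6 and 174 CPM in control medium and at 169 and 165 CPM in alkaline medium (-0.053 ± 0.046, adjusted p = 0.491). Hist1h2bc was at 134 and 136 CPM and at 129.6 and 118 CPM (-0.13 ± 0.052, adjusted p = 0.0716). These genes, the 2 with most counts, together held 53.0% and 53.3% of the member counts in control medium. Their share in alkaline medium was 48.2% and 48.3%. Without them the members summed to 271 ± 0.459 CPM in control and 312 ± 12.7 CPM in alkaline medium, a ratio of 1.15, while they themselves had a ratio of 0.946. Hist1h2bg, the other H2B gene with an unadjusted p under 0.05, was at 22.5 and 23.0 CPM and at 20.4 and 18.9 CPM (-0.22 ± 0.088, adjusted p = 0.0816).

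The other named H1 and H2B genes did not pass. Hist1h1d was at 9.45 and 10.6 CPM in control medium and at 9.44 and 10.3 CPM in alkaline medium (-0.028 ± 0.12, adjusted p = 0.919). Hist1h1e was at 6.37 and 7.63 CPM and at 6.53 and 5.42 CPM (-0.24 ± 0.15, adjusted p = 0.324), and Hist1h1b at 1.03 and 1.35 CPM and at 1.21 and 1.16 CPM (-0.008 ± 0.33, adjusted p = 0.993). All 3 overlapped between groups. Hist1h2be was at 16.6 and 14.8 CPM and at 15.7 and 14.8 CPM (-0.052 ± 0.10, adjusted p = 0.804), and Hist1h2bq at 4.49 and 5.599 CPM and at 5.42 and 4.47 CPM (-0.038 ± 0.17, adjusted p = 0.92).

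Among the H4 genes, those that had risen most in n-Sen did not pass in alkaline medium. Hist1h4n was at 18.8 and 19.9 CPM in control medium and at 21.2 and 19.8 CPM in alkaline medium (0.074 ± 0.091, adjusted p = 0.66). Hist1h4m was at 14.8 and 15.6 CPM and at 14.9 and 15.3 CPM (-0.019 ± 0.10, adjusted p = 0.931). Hist1h4h was at 12.8 and 11.2 CPM and at 12.99 and 12.1 CPM (0.057 ± 0.11, adjusted p = 0.802). All 3 overlapped between groups. Hist1h4i was at 7.51 and 8.17 CPM and at 10.0 and 8.44 CPM (0.23 ± 0.13, adjusted p = 0.271), and Hist1h4a at 2.39 and 2.66 CPM and at 3.62 and 3.81 CPM (0.55 ± 0.20, adjusted p = 0.0569). Neither overlapped, and neither passed.

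By annotated transcript end, 2 of 23 tested members with a 3′ UTR of at least 200 bases rose in alkaline medium (median -0.04), and 3 of 34 with a shorter one rose (median 0.31). Without the H3 genes these medians were -0.07 over 18 genes and 0.15 over 27. The difference between the sets was not tested. By place, 3 of 27 tested genes of the Hist1 stretch at 23531050-23764406 rose, Hist1h2ab, Hist1h3b and Hist1h3c. None of the 16 tested at 21715763-21837530 rose in edgeR, where 1 had an unadjusted p under 0.05 on the higher side, and DESeq2 called none of them. The n-Sen libraries of the first table, whose titles name no medium, had summed levels of 591 and 596 CPM, close to the 576 and 581 CPM of the control-medium libraries. No test between the tables was made.

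Genes that make, process, carry and replace histones were looked at beside the members. Of all genes tested in the n-Sen comparison, 34.0% were called higher and 33.1% lower. Of 22 genes for transcription, 3′ end processing and decay of histone mRNA, 15 fell in n-Sen and 1 rose (median -0.63). Slbp, which encodes the protein that binds the hairpin, was at 56.2 and 56.9 CPM in proliferating cells and at 17.1 and 15.6 CPM in n-Sen. It fell by 1.79 ± 0.081 on the log2 scale. Cstf2, a cleavage factor used in histone and in tailed mRNAs, fell by 1.58 ± 0.078. Srrt (ARS2), which joins the cap-binding complex, fell by 1.12 ± 0.056, and Snrpb, a protein of the Sm ring, by 1.04 ± 0.058. Npat, the coactivator of histone gene transcription in S phase, fell by 0.61 ± 0.078. The one that rose was Ncbp2, the small subunit of the nuclear cap-binding complex (0.16 ± 0.061).

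Genes listed as replication-independent or variant histones mostly went the other way from the members. Of 12 tested, 10 fell and 1 rose (median -1.18). Cenpa, the H3 variant of centromeres, went from 82.1 ± 2.37 to 3.00 ± 0.461 CPM (log2 fold change -4.76 ± 0.10). H2afz (H2A.Z) was at 304 and 322 CPM in proliferating cells and at 50.7 and 45.6 CPM in n-Sen (-2.70 ± 0.062). H2afy2 (macroH2A2) had -2.97 ± 0.097 and H2afx (H2A.X, phosphorylated at DNA breaks) -2.21 ± 0.072. The one that rose was H2afj (H2A.J), from 36.2 ± 0.282 to 52.4 ± 0.870 CPM (0.54 ± 0.071).

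The chaperones that bring histones to DNA, the S phase genes and the poly(A) machinery had no member that rose. This held with edgeR, also at an unadjusted p under 0.05, and with DESeq2. Of 22 chaperones, 20 fell (median -1.25). Nasp, which holds a soluble store of H3 and H4, went from 133 ± 0.625 to 12.3 ± 0.112 CPM, and Chaf1b, of the replication-coupled assembly factor CAF-1, from 35.8 ± 1.98 to 1.90 ± 0.0703 CPM. Hjurp, the chaperone of Cenpa, fell by 2.33 ± 0.059 and Ssrp1, of the FACT complex, by 1.69 ± 0.051. All 20 S phase genes fell (median -3.04). Ccna2 (cyclin A2) was at 153 and 155 CPM in proliferating cells and at 8.28 and 7.27 CPM in n-Sen, and Mcm5, a subunit of the replicative helicase, went from 127 ± 10.6 to 4.43 ± 0.0655 CPM. The helicase genes Mcm3 and Mcm2 had log2 fold changes of -4.21 ± 0.078 and -3.69 ± 0.076.

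Of 17 genes of the poly(A) machinery, 16 fell and 1 did not pass (median -0.68). Pabpc4, a cytoplasmic poly(A)-binding protein, fell by 1.25 ± 0.051. Nudt21 and Cpsf6, which together form the cleavage factor that favours distal sites, fell by 1.07 ± 0.063 and 0.97 ± 0.069, and Fip1l1 fell by 0.85 ± 0.060. The histone members thus stood higher in libraries where S phase genes, Slbp and most poly(A) factors stood lower, and whether these are connected was not tested.

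**Figure D5:**
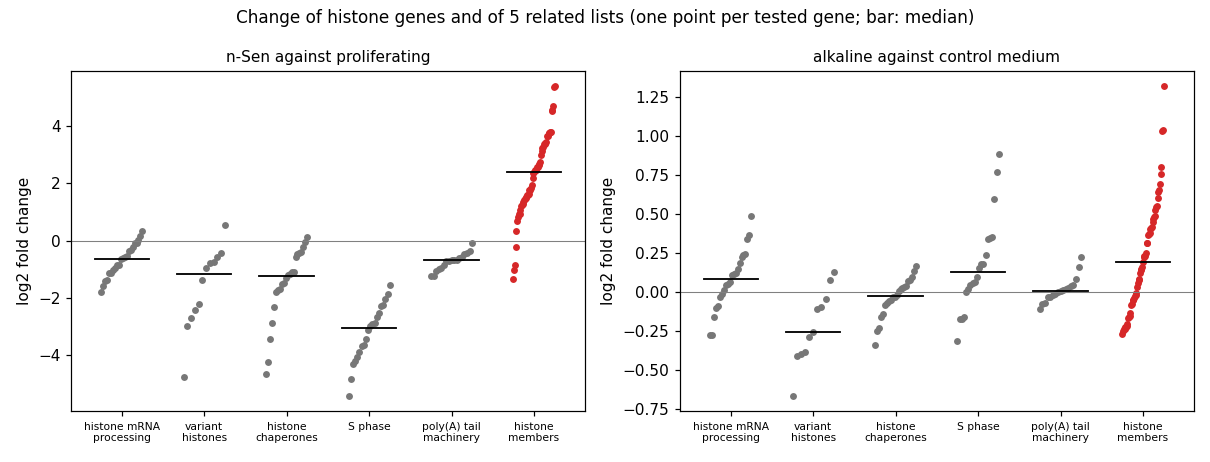
Log2 fold change (vertical axis) of each tested gene (points) of 5 related lists and of the histone members (red), with the median as a bar, for n-Sen against proliferating cells (left) and alkaline against control medium (right). In the left panel the histone median is 2.39 and those of the lists lie between -3.04 and -0.63.

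In alkaline medium, 9.58% of all genes tested were called higher and 10.4% lower, beside which the lists below stand. Of the 22 histone mRNA genes, 4 rose and none fell with edgeR, and DESeq2 gave the same numbers. At an unadjusted p under 0.05, 5 were higher and none lower. The 4 that rose were Sympk, the scaffold of the cleavage complex (0.34 ± 0.047, adjusted p = 8.76e-06), Cdk9, a kinase of transcription elongation (0.24 ± 0.057, adjusted p = 0.00303), Hinfp, an activator of H4 genes (0.37 ± 0.090, adjusted p = 0.00467), and Npat. Npat was at 33.7 and 31.7 CPM in control medium and at 37.4 and 39.9 CPM in alkaline medium (0.23 ± 0.072, adjusted p = 0.0225). Slbp did not pass, at 16.6 and 19.4 CPM and at 17.9 and 16.1 CPM (-0.094 ± 0.10, adjusted p = 0.607).

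Of 11 histone variants tested, 3 fell in alkaline medium and none rose, again with either tool and unadjusted. H3f3a, which encodes the replication-independent H3.3, went from 103 ± 1.82 to 84.9 ± 3.15 CPM (-0.29 ± 0.053, adjusted p = 0.000251). H1f0, the H1 of resting cells, went from 70.7 ± 3.67 to 53.9 ± 1.49 CPM (-0.40 ± 0.060, adjusted p = 2.69e-05), and H2afy2 had -0.67 ± 0.16 (adjusted p = 0.00452). Of the chaperones, Supt16, the partner of Ssrp1 in FACT (-0.34 ± 0.061, adjusted p = 0.000191), and Atrx, which places H3.3 (-0.25 ± 0.049, adjusted p = 0.00048), fell. None rose, and DESeq2 called the same numbers. With edgeR's unadjusted p under 0.05, 1 was higher and 3 lower. The share of chaperones that fell, 2 of 22, is near the 10.4% of all genes called lower.

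Of the 20 S phase genes, 2 rose in alkaline medium and none fell, in edgeR and DESeq2 alike. The share that rose is near the 9.58% of all genes called higher. With edgeR's unadjusted p under 0.05, 5 were higher and 1 lower. Mcm6 was at 16.5 and 16.8 CPM in control medium and at 33.4 and 28.5 CPM in alkaline medium (0.89 ± 0.091, adjusted p = 1.18e-07). Rrm2, a subunit of ribonucleotide reductase, went from 44.5 ± 1.18 to 67.8 ± 6.65 CPM (0.60 ± 0.067, adjusted p = 4.68e-07). Ccna2 did not pass, at 8.03 and 5.997 CPM and at 5.82 and 5.50 CPM (-0.32 ± 0.16, adjusted p = 0.182). Of the 17 poly(A) machinery genes, Pabpc4 (0.23 ± 0.046, adjusted p = 0.000928) and Papola, the poly(A) polymerase (0.16 ± 0.047, adjusted p = 0.0198), rose. None fell, also unadjusted and with DESeq2. The share of poly(A) genes that rose is likewise near that over all genes.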

How the data were processed

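Polyadenylated RNA of 8 mouse embryonic fibroblast libraries was sequenced with a directional dUTP method, according to the protocols in the labels. The build mm10, HISAT2 2.1.0, fastp 0.23.2, DESeq2 1.34.0, Subread 2.0.2 and its featureCounts are named, per the submitters' processing notes. The annotation, the strand setting and the treatment of multiply mapped reads are not given in the sources used here. The authors deposited expected counts per gene, estimated counts that need not be whole, in 2 tables of 54838 rows. Values were rounded to whole numbers for testing, and levels in CPM used the unrounded values and TMM-scaled library sizes of all 8 libraries.

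Each table was fitted on its own with edgeR 4.0.16 in R 4.3.3: filterByExpr (minimum count of 10), TMM scaling, the quasi-likelihood test, and Benjamini-Hochberg adjustment over all genes tested, with a threshold of 0.05. On simulated counts with the n-Sen design, 58.9%, 91.8% and 94.4% of genes changed 1.5-fold, 2-fold and 4-fold were recovered. With the alkaline design the shares were 58.2%, 85.1% and 97.2%. The changed genes were 56, 73 and 71 of 19264 in the first design and 55, 74 and 71 of 19129 in the second. Of the unchanged genes, 2 and 4 were called. Every simulated gene had the same spread and far fewer genes changed than were called here, so these shares need not hold for the members. Alternatives were other scalings, filters and roundings, DESeq2 1.42.0, a fit of all 8 libraries, a replicate block and the removal of each library.

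Symbols, exons and transcripts came from GENCODE vM21, and promoters from RefSeq on GRCm38.p6. The members and gene lists were chosen with earlier results of these data known. Named with values are the 4 members of highest mean CPM in each class and, in each comparison, the 10 of smallest p whose mean reached 1 CPM in either group. Members called against the majority are also named, as are the 4 genes of smallest p of each list and up to 3 called the other way.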

Additional observations from a re-analysis of the deposited data

How the results depend on the processing

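The number of members higher in n-Sen was 35 to 46 over the alternatives other than leaving out a library, 40 with DESeq2 and 35 of 37 tested with a filter of 1 CPM in 2 libraries. Without 1 library it was 37 to 43. The number lower was 1 with the 1 CPM filter, 3 with no filter beyond 1 count and 1 to 2 without 1 library. In alkaline medium 4 to 6 members were higher over those alternatives, and 4 to 5 without 1 library. The number lower, 0 in edgeR's test, was 1 with no filter beyond 1 count and 0 to 1 without 1 library, Hist1h2bc each time.

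Same-numbered deviations correlated at -0.0017 and -0.0031, which showed no pairing by replicate number. With 2 libraries in each group this cannot exclude a pairing. With the replicate block 44 members were higher and 2 lower in n-Sen, and 6 higher and 1 lower, Hist1h2bc, in alkaline medium. The block also turned Hist1h1b in alkaline medium to a log2 fold change of 0.0003.

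Other signs that turned were all alkaline values that had not passed, each with 1 library left out. The log2 fold changes ran from -0.1080 to 0.0597 for Hist1h1d (0.0351 without n-Sen alkali replicate 1), and from -0.1899 to 0.2036 for Hist1h1b. They ran from -0.1316 to 0.0343 for Hist1h2be, -0.1886 to 0.1328 for Hist1h2bq, -0.0570 to 0.0209 for Hist1h4m and -0.0323 to 0.1543 for Hist1h4h. Without n-Sen alkali replicate 1 only 3 of the 5 genes called higher in alkaline medium remained. The causes were not tested. Where 1 library was left out, the lone library was assumed to vary like the other group. No scaling moved the median of all genes by over 0.1. Depth limits members of few counts, and near-identical copies limit single genes.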

Other observations

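Histone rows of the same symbols that are annotated as pseudogenes were not among the members. The unprocessed pseudogene Hist1h2aj had 3.55 and 9.38 counts in the proliferating libraries and 23.1 and 22.0 in n-Sen. In the pH experiment it had 27.0 and 19.9 with control medium and 19.2 and 35.0 with alkaline medium. Hist1h2al, a processed pseudogene, had 0.33 and 1.67 counts, 9.08 and 11.3, 15 and 7.83, and 5.33 and 9.67 in the same order. Hist3h2bb-ps had 0 to 6 counts. These values are in part fractional, as those of the genes they resemble are.

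Hist4h4, the single gene of the Hist4 locus, had unlike counts in libraries of the same group: 2 and 36 in n-Sen, 16 and 4 with control medium and also with alkaline medium, against 6 and 6 in proliferating cells. It was picked out after its values were seen.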
